A study of Homo sapiens with 2 samples.

Results

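The transcripts of 10 genes of the FAT cadherins and the Hippo pathway were compared between 2 mRNA sequencing libraries of H9, a widely used line of human embryonic stem cells. In one, called siHNRNPA1, the cells had received a small interfering RNA (siRNA) for 48 h that targets HNRNPA1, which encodes hnRNP A1, an RNA-binding protein that regulates splicing. The other, called the control, came from cells given a control siRNA for as long. Each condition had 1 library, so no difference below has a replicate check, and no test was applied. The genes were taken by name (FAT1, FAT3, YAP1, WWTR1, TEAD1, TEAD2, TEAD4, LATS1, LATS2 and NF2) and hold 69 of the 95139 transcripts and 10 of the 20263 genes of the deposited table. They were selected on the very low FAT1 level of the siHNRNPA1 library, so the values of this comparison are a description. HNRNPA1 itself stood at 27.1% of its control level.

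FAT1 and FAT3 are giant atypical cadherins at the cell surface. The Hippo pathway is a kinase cascade that reads cell contact and polarity: merlin, the product of NF2, helps to activate the kinases LATS1 and LATS2, which phosphorylate YAP1 and TAZ (the product of WWTR1) and keep them out of the nucleus. Unphosphorylated YAP1 and TAZ enter the nucleus and bind TEAD proteins, which carry them to their target genes, and in pluripotent cells this pathway is known for its part in survival and in the choice between self-renewal and differentiation.

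The total estimated count was 28147828 under siHNRNPA1 and 26680342 in the control library. Mitochondrial genes held 18.1% of TPM under siHNRNPA1 and 28.2% in the control, and the part of this in the results was not tested. All 8 pluripotency markers examined reached a mean of 1 FPKM (the number of fragments scaled to transcript length and library size), with POU5F1 at 1355 FPKM under siHNRNPA1 and 864 in the control, and PODXL (-1.61) and SOX2 (-1.10) lower by log2 folds past 2-fold. Of the marker lists of other cell types, none of 6 neural and none of 8 mesoderm and endoderm genes reached a mean of 1 FPKM. The neural list summed to 0.398 FPKM under siHNRNPA1 and 0.770 in the control, and the mesoderm and endoderm list to 2.83 and 1.06, with FOXA2 at 1.52 FPKM from 123 counts under siHNRNPA1 and listed at 0 in the control. Of 7 trophoblast and amnion genes GABRP alone did, and the list summed to 1.89 FPKM under siHNRNPA1 and 6.21 in the control. Of 8 fibroblast markers 4 did, and the list summed to 218 and 264 FPKM, mostly through THY1, a surface protein that pluripotent stem cells also carry. COL1A1 had 25.0 FPKM under siHNRNPA1 and 14.5 in the control, COL1A2 8.38 and 13.3, and PDGFRB 2.65 and 3.61. The fibroblast markers LUM, DCN and COL3A1 were listed at 0 in both. Fewer cells of a type and less RNA per cell cannot be told apart in such bulk libraries.

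Most of the 10 genes had lower levels under siHNRNPA1. With the fold taken as log2((siHNRNPA1 + 1)/(control + 1)) of the summed FPKM of a gene, 7 genes lay 2-fold or more under the control and none as far above it, with a median of -1.33. Of the 11921 genes with a mean of at least 1 FPKM, 21.9% lay as far under the control and 12.4% as far above it, with a median of -0.13. Since the choice of the genes used this comparison, nothing is read from their count. The 7 lower genes were FAT1, FAT3, LATS2, YAP1, LATS1, TEAD1 and WWTR1. NF2, TEAD4 and TEAD2 were within 2-fold, NF2 on the lower side and TEAD4 and TEAD2 on the higher side.

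**Figure D1:**
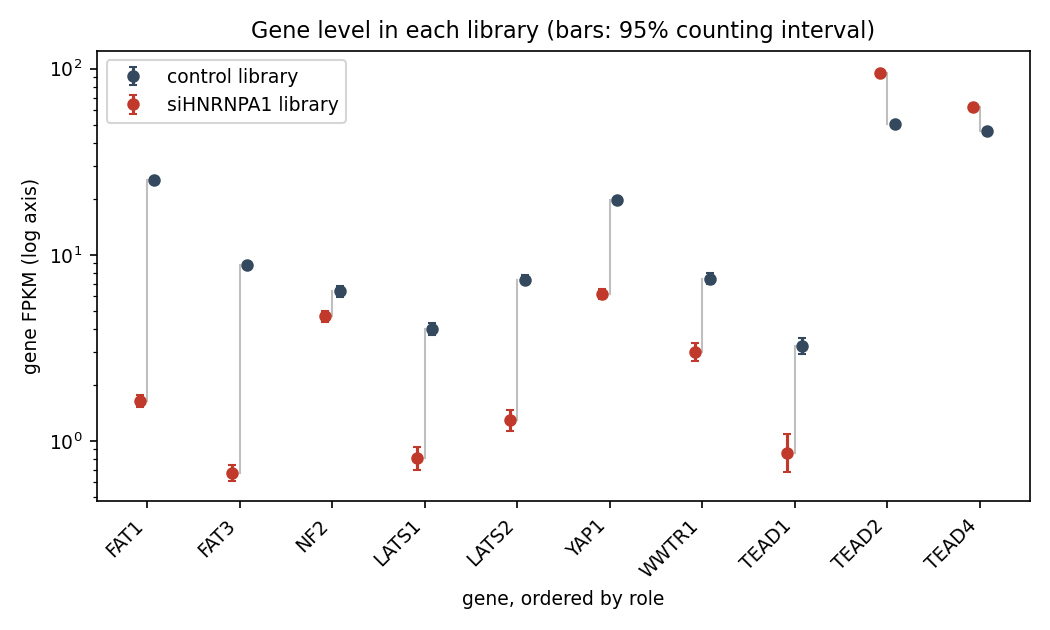
Level of each gene in FPKM (log axis) in the control library (dark) and the siHNRNPA1 library (red), 1 library each, with 95% exact Poisson intervals of the summed count, scaled to FPKM. FAT1 lies at 25.2 FPKM in the control and 1.64 under siHNRNPA1, and only TEAD2 and TEAD4 lie higher under siHNRNPA1.

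Base composition and length went with the folds over all genes, and these genes are mostly long and poor in G and C. In the fifth of genes with the lowest GC content of the longest coding transcript, 48.6% were at least 2-fold lower, against 1.77% in the fifth with the highest. In the fifth with the longest transcripts 45.8% were at least 2-fold lower, against 3.41% in the fifth with the shortest. Ordered by GC content and cut into 5 equal classes, 6 of the 7 lower genes fell in the lowest or second lowest class, and by length all 7 fell in the longest or second longest. TEAD4 (60.4% GC, 1690 bases) and TEAD2 (58.4% GC, 2440 bases) were rich in GC and short. NF2 was in the class of the longest genes but had 56.0% GC. When the median fold of the 100 genes nearest in expression, GC content and length was subtracted from each gene, FAT1, FAT3 and LATS2 stayed at least 2-fold lower and the other 7 genes were within 2-fold. By that measure 8.41% of all genes lay 2-fold or more under the control and 8.07% as far above it.

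**Figure D2:**
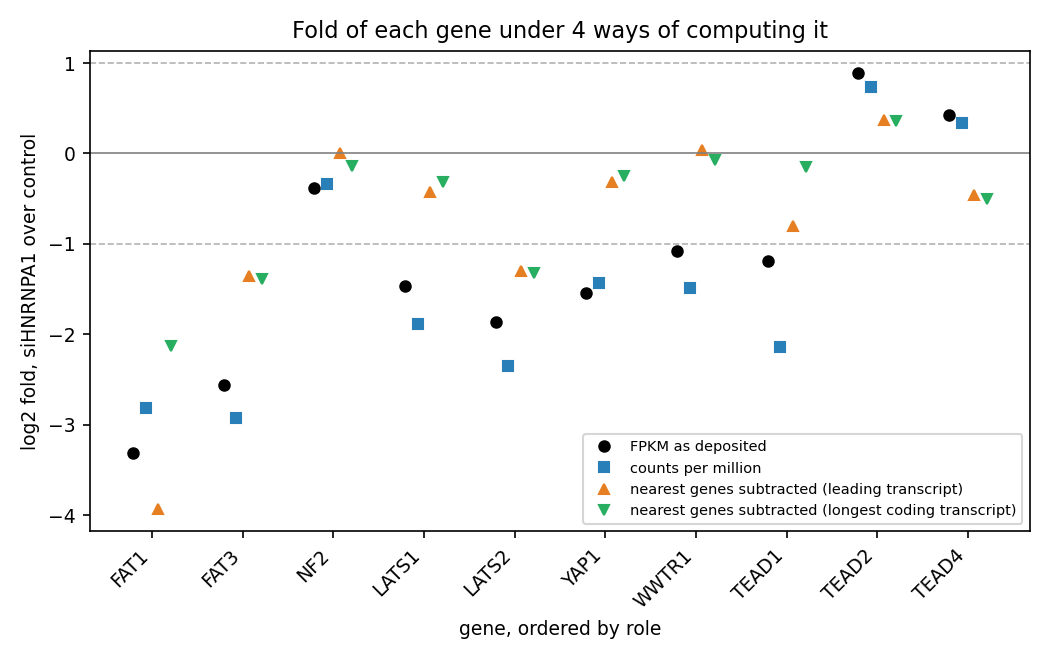
Log2 fold of each gene (siHNRNPA1 over control) from FPKM, from counts scaled to the library total, and after subtraction of the nearest genes matched on the leading or on the longest coding transcript. Dashed lines mark 2-fold. FAT1, FAT3 and LATS2 stay below -1 in all 4, while YAP1, LATS1, WWTR1 and TEAD1 move to between -0.81 and 0.03 after the subtraction.

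Beyond their levels, 4 of the genes differed between the libraries in which exons their transcripts carried. For each internal exon that some annotated transcripts of a gene include and others skip, inclusion is the FPKM of the including transcripts as a percentage of both. Of 11 such exons in 5 of the genes with at least 1 FPKM in both libraries, 7 differed by at least 20 percentage points, 3 of them with higher and 4 with lower inclusion under siHNRNPA1. Over all genes 29.8% of 12155 such exons differed as much, 15.7% with higher and 14.0% with lower inclusion. The 7 exons lie in 4 genes and partly rest on the same transcripts, so they are not independent of each other. Transcripts of a gene overlap, and the part played by the division of reads between them was not tested.

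The exons are shown because the transcript forms described below differ in them. Each sequence runs 5′ to 3′ along the transcript of GENCODE release 29 (GRCh38), with the alternative exon in capitals and 15 bases of the adjoining exons in lower case.
YAP1, 114 bases, chr11:102186018-102186131, plus strand, exon 4 of YAP1-210: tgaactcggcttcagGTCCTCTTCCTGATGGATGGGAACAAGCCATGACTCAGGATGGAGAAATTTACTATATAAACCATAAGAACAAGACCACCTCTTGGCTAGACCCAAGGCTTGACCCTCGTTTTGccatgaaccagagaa
YAP1, 48 bases, chr11:102209517-102209564, plus strand, exon 6 of YAP1-210: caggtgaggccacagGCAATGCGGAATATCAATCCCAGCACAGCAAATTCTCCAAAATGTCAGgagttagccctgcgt
NF2, 123 bases, chr22:29639090-29639212, plus strand, exon 3 of NF2-202: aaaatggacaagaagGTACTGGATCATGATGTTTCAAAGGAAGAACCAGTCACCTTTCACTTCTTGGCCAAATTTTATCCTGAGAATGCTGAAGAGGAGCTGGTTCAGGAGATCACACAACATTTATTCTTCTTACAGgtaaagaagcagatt
NF2, 45 bases, chr22:29683020-29683064, plus strand, exon 16 of NF2-204: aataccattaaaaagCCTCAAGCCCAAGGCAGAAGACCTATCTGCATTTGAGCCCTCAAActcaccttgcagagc
TEAD2, 12 bases, chr19:49355959-49355970, minus strand, exon 5 of TEAD2-208: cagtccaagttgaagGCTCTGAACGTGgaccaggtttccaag
FAT1, 36 bases, chr4:186590368-186590403, minus strand, exon 3 of FAT1-211: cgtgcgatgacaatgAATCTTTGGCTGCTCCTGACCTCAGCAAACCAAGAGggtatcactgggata
All 6 lengths are multiples of 3. The length of the TEAD2 exon of 238 bases, which is among the 7 but not shown, is not. The 6 exons shown are coding throughout in the transcripts named, except for the NF2 exon of 45 bases, of which 33 bases are coding. None of the 7 exons holds the letters TAGG on the transcript strand, part of the sequence that hnRNP A1 is known to prefer. The letters do occur just past the end of the NF2 exon of 45 bases. They lie within the NF2-207 exon of 60 bases, which has the same start and differed by -12.3 points. Of internal coding exons of 60 bases in GENCODE, 6.06% hold them. Among internal coding exons of the same length in GENCODE, the letters occur in 0.714% of those of 12 bases, 2.90% of those of 36, 4.93% of those of 45, 4.71% of those of 48, 8.92% of those of 114, 9.19% of those of 123 and 19.0% of those of 238. The introns were not searched.

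**Figure D3:**
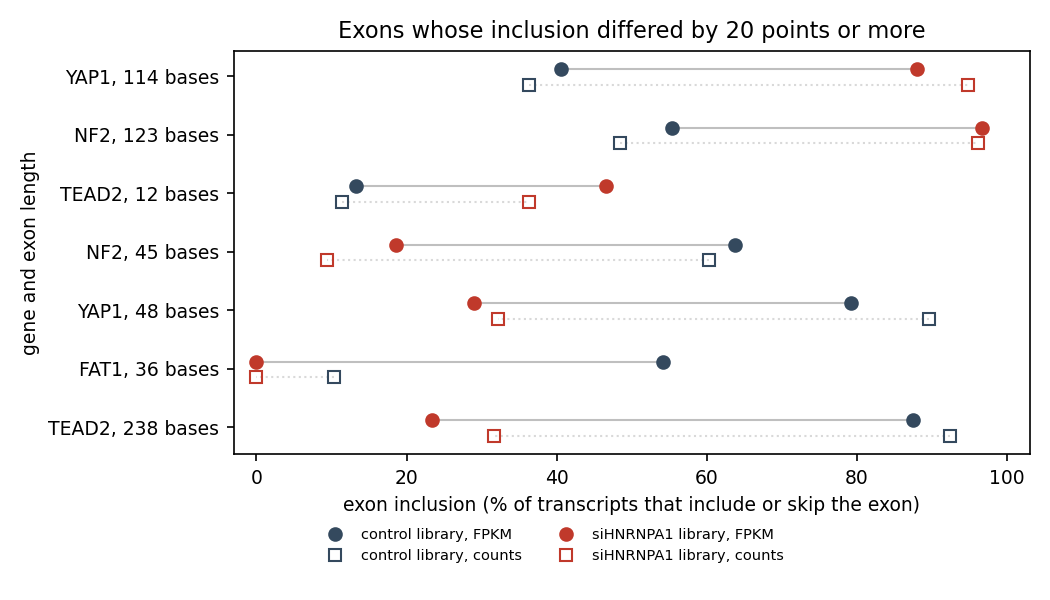
Inclusion of the 7 exons in the control library (dark) and the siHNRNPA1 library (red), from FPKM (filled circles) and from estimated counts of the same transcripts (open squares), 1 library each. The YAP1 exon of 114 bases goes from 40.5% to 88.0%, and the FAT1 exon of 36 bases, at 54.2% of FPKM in the control, is at 10.4% of counts there.

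FAT1 (ENSG00000083857, chr4:186587783-186726722, minus strand) encodes a cadherin that acts on cell contacts and the actin cytoskeleton. It had 1.64 FPKM under siHNRNPA1 (95% exact Poisson interval of the summed count, scaled to FPKM, 1.52 to 1.76) and 25.2 FPKM in the control (24.5 to 25.9), or 6.51% of the control level. The scaling gives each count the same FPKM. In the control, 543 of the 5245 counts carried 13.4 of the 25.2 FPKM, so the interval there is too narrow. The log2 fold of -3.31 was undercut by 0.0839% of all genes. The gap was smaller in estimated counts, at 762 under siHNRNPA1 and 5245 in the control, or 13.8% of the control after scaling to the total count.

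The table lists 7 FAT1 transcripts, of which 5 were above 0 in the control and 2 under siHNRNPA1. FAT1-201, the full-length form of 27 exons and 14786 bases, had 1.54 FPKM under siHNRNPA1 and 10.1 in the control, so that by itself it stood at 15.3% of its control level (log2 fold -2.13). FAT1-211, a model of 1305 bases with an incomplete start that covers only the last exons of the coding region, had 13.4 FPKM from 543 counts in the control and was listed at 0 under siHNRNPA1. It thus held 53.2% of the gene's FPKM in the control but 10.4% of its counts. A count of 0 allows up to 4.22% of FAT1 FPKM for this short transcript at the limit of 3 counts, a limit that covers counting error only. Models with incomplete ends held 59.5% of FAT1 FPKM in the control and none under siHNRNPA1.

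The same model decides the FAT1 exon of 36 bases. Its inclusion was 0% under siHNRNPA1 and 54.2% in the control by FPKM, but 10.4% in the control by counts (exact binomial interval 9.59% to 11.3%), and FAT1-211 was the only including transcript above 0. Matching FAT1 on the short leading transcript of 1305 bases gave a fold of -3.94 after subtraction of its nearest genes, and matching on the full-length transcript gave -2.13. Over these 2 libraries, the genes with at least 5 FPKM on average whose fold was closest to that of FAT1 were ZBED6 (-3.31), SLC4A7 (-3.29), API5 (-3.37) and AFDN (-3.39).

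FAT3 (ENSG00000165323, chr11:92352096-92896470, plus strand), the FAT cadherin known from neuronal dendrite shape, had 0.673 FPKM under siHNRNPA1 (0.610 to 0.740) and 8.86 in the control (8.56 to 9.17), a log2 fold of -2.56. Its counts were 427 and 3262. The full-length FAT3-201, with 19030 bases the longest transcript of these genes, had 0.673 FPKM under siHNRNPA1 and 2.97 in the control. FAT3-206, a transcript of 7894 bases that starts far downstream of FAT3-201, had 5.72 FPKM from 1405 counts in the control and was listed at 0 under siHNRNPA1. The full-length form was therefore 33.5% of FAT3 FPKM and 53.9% of FAT3 counts in the control, and all of both under siHNRNPA1. By itself FAT3-201 stood at 22.7% of its control level, where the whole gene stood at 7.59%.

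Of the other genes of the FAT and Dachsous list, FAT2, FAT4 and DCHS2 stayed under a mean of 1 FPKM. FAT4 had 0.0634 and 0.665 FPKM, with 35 and 334 counts. DCHS1, the Dachsous cadherin that serves as ligand of FAT4, had 4.26 FPKM under siHNRNPA1 and 2.53 in the control (log2 fold 0.57). FJX1, the vertebrate relative of the Golgi kinase four-jointed, had 11.3 and 3.37 FPKM (1.5), and LIX1L 0.453 and 2.19 FPKM (-1.13). In this list 3 of 5 measured genes were at least 2-fold lower, FAT1 and FAT3 among them, and 1 was higher (21.9% and 12.4% over all genes). After subtraction of the nearest genes FAT1 and FAT3 remained 2-fold lower (8.41% over all genes), while LIX1L stood at -0.56 and FJX1 at 0.84.

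NF2 (ENSG00000186575, chr22:29603556-29698598, plus strand) differed little in level and clearly in its forms. The gene had 4.66 FPKM under siHNRNPA1 (4.34 to 5.0) and 6.36 in the control (5.96 to 6.77), a log2 fold of -0.38. NF2-202, the form with exon 3 and without exon 16 that encodes the main growth-suppressing isoform of merlin, had 3.38 FPKM under siHNRNPA1 and 1.88 in the control, with 677 and 352 counts. NF2-205, which skips exon 3 and includes exon 16, had 0.157 FPKM under siHNRNPA1 and 2.69 in the control, with 31 and 492 counts. Their shares of NF2 FPKM were thus 72.4% and 3.36% under siHNRNPA1, and 29.5% and 42.3% in the control.

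The exon of 123 bases of NF2, which encodes part of the FERM domain of merlin, was included at 96.6% under siHNRNPA1 and 55.3% in the control. Counts gave 96.1% (exact binomial interval 94.5% to 97.3%) and 48.4% (45.2% to 51.7%). The exon of 45 bases, which gives merlin its alternative C-terminus, was included at 18.7% under siHNRNPA1 and 63.8% in the control. Counts gave 9.36% (7.37% to 11.7%) and 60.3% (57.0% to 63.5%). NF2-207 and NF2-209 carry these bases within a longer exon and are left out of these values. With them the inclusion was 27.5% and 67.7%.

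The kinases LATS1 and LATS2 were both lower. LATS2 (ENSG00000150457, chr13:20973032-21061547, minus strand), itself a target gene of YAP1, has 1 transcript in the table, so its level does not depend on the division between its own transcripts. The gene overlaps LATS2-AS1 on the opposite strand and RNU4-9P on the same strand, and the part of this in its level was not tested. It had 1.29 FPKM under siHNRNPA1 (1.13 to 1.47) and 7.33 in the control (6.93 to 7.74), with 237 and 1255 counts and a log2 fold of -1.86. After subtraction of its nearest genes LATS2 stood at -1.30.

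LATS1 (ENSG00000131023, chr6:149658153-149718256, minus strand) had 0.809 FPKM under siHNRNPA1 (0.702 to 0.929) and 4.0 in the control (3.73 to 4.29), with 203 and 781 counts and a log2 fold of -1.47. Of its 6 transcripts only LATS1-207 was above 0 under siHNRNPA1. LATS1-201, which has the same coding length of 3390 bases, had 1.18 FPKM in the control. In contrast to LATS2, LATS1 stood at -0.42 after the subtraction, and its leading transcript LATS1-207 has a GC content of 39.7% against 51.8% for the LATS2 transcript.

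YAP1 (ENSG00000137693, chr11:102110461-102233423, plus strand), the coactivator at the end of the cascade, was lower as a gene and differed in its leading form. It had 6.13 FPKM under siHNRNPA1 (5.76 to 6.53) and 19.7 in the control (19.0 to 20.5), with 992 and 2590 counts and a log2 fold of -1.54. After subtraction of its nearest genes it stood at -0.32. The leading transcript of the control library was YAP1-202, with 9.22 FPKM from 1515 counts there, and it was listed at 0 under siHNRNPA1. A count of 0 allows up to 0.279% of YAP1 FPKM for it, by the limit of 3 counts. The leading transcript of the siHNRNPA1 library was YAP1-209, with 3.43 FPKM from 611 counts there and 0.503 FPKM from 84 counts in the control. Its share of YAP1 FPKM was 55.9% under siHNRNPA1 and 2.55% in the control.

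The 2 forms differ in 2 coding exons. YAP1-209 includes the exon of 114 bases, which encodes the second WW domain, the module that binds PPxY motifs of partners such as LATS kinases and angiomotins, and YAP1-202 skips it. YAP1-209 skips the exon of 48 bases, which lies in the transcriptional activation domain, and YAP1-202 includes it. Over all spanning YAP1 transcripts the exon of 114 bases was included at 88.0% under siHNRNPA1 and 40.5% in the control. Counts gave 94.8% (exact binomial interval 93.2% to 96.1%) and 36.3% (34.4% to 38.2%). The exon of 48 bases was included at 29% and 79.2%, with counts giving 32.2% (29.3% to 35.2%) and 89.6% (88.4% to 90.8%). In FPKM, the transcripts with the exon of 114 bases summed to 5.40 under siHNRNPA1 and 7.29 in the control, and those without it to 0.737 and 10.7. The lower YAP1 level thus lay mostly in the forms with a single WW domain.

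WWTR1 (ENSG00000018408, chr3:149517235-149736714, minus strand), which encodes the YAP1 paralog TAZ, had 3.01 FPKM under siHNRNPA1 (2.68 to 3.36) and 7.46 in the control (6.97 to 7.97), with 312 and 879 counts and a log2 fold of -1.08. Its main transcripts, WWTR1-203 and WWTR1-201, have the same coding length of 1200 bases and differ in their ends. The longer WWTR1-203 had 1.05 and 4.35 FPKM, or 35% and 58.4% of the gene, and WWTR1-201 had 1.89 and 2.98 FPKM, or 62.7% and 39.9%. By counts WWTR1-203 led in both libraries, with 56.7% under siHNRNPA1 and 77.5% in the control. The coding lengths of these 2 forms are thus the same, unlike those of YAP1-202 and YAP1-209. After subtraction of its nearest genes the fold was 0.03.

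**Figure D4:**
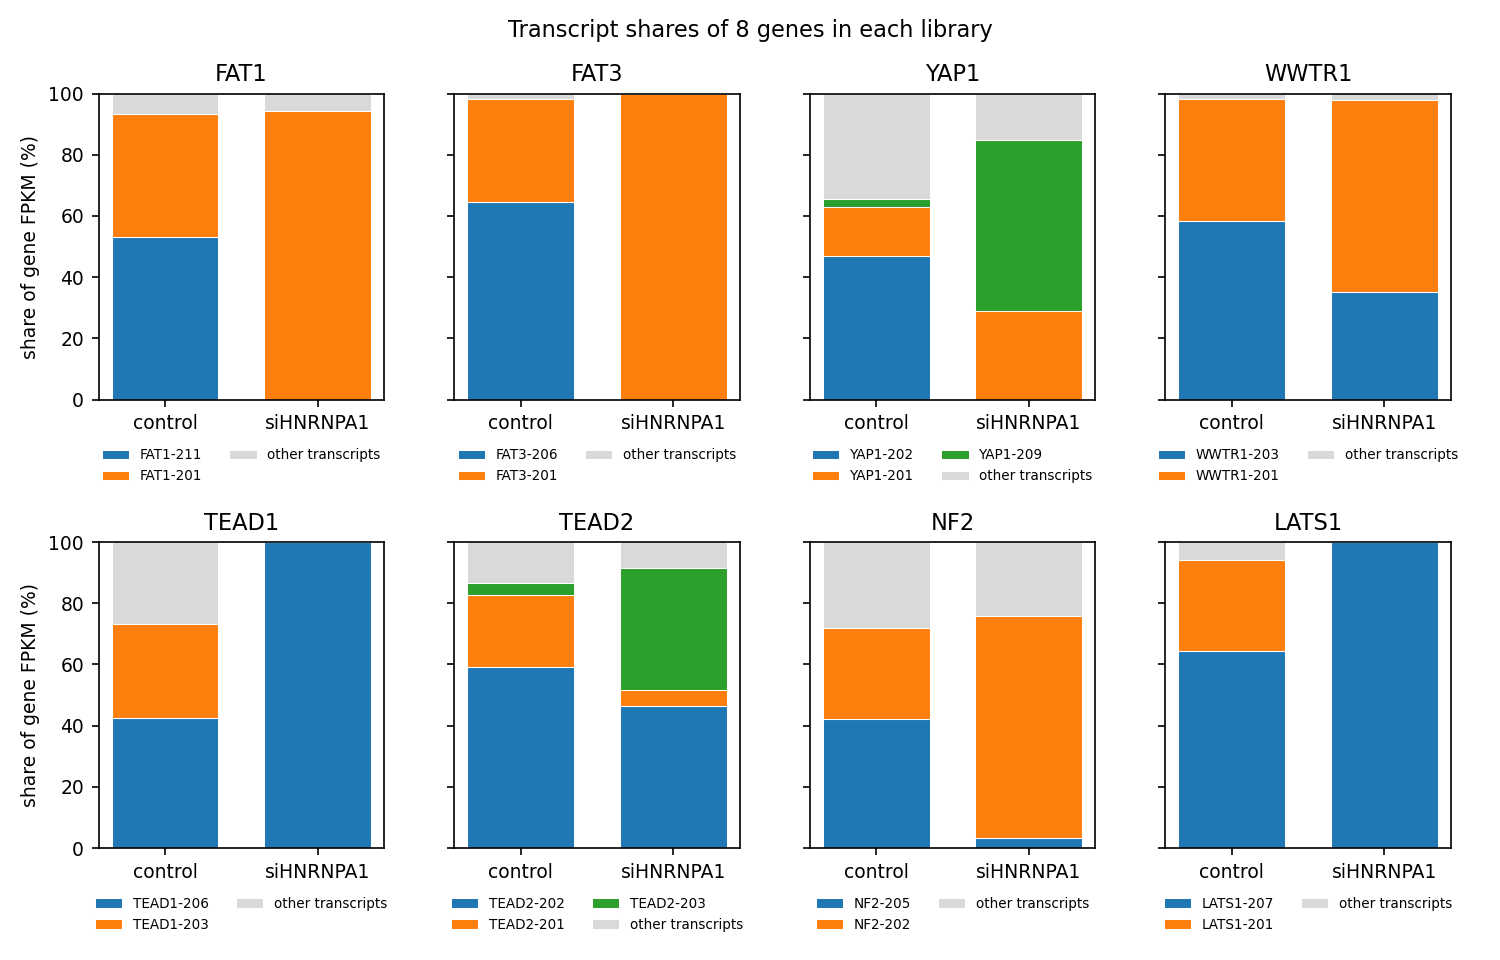
Share of each gene's FPKM (stacked to 100%) held by its named transcripts in the control and the siHNRNPA1 library, for the 8 genes with at least 1 share difference of 20 percentage points. By FPKM the leading form differs between the libraries in FAT1, FAT3, YAP1, WWTR1 and NF2, and by estimated counts in YAP1, NF2 and TEAD1.

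The TEAD genes, whose products bind DNA and recruit YAP1 and TAZ, differed in direction. TEAD1 (ENSG00000187079, chr11:12674591-12944483, plus strand) had 0.865 FPKM under siHNRNPA1 (0.679 to 1.09) and 3.25 in the control (2.94 to 3.58), with 74 and 401 counts and a log2 fold of -1.19. TEAD1-206 was its only transcript above 0 under siHNRNPA1, at 0.865 FPKM there and 1.38 in the control. TEAD1-203, a transcript of 8477 bases that starts downstream, had 0.989 FPKM from 261 counts in the control and was listed at 0 under siHNRNPA1. After subtraction of its nearest genes TEAD1 stood at -0.81 when matched on TEAD1-206 and at -0.15 when matched on TEAD1-203.

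TEAD2 (ENSG00000074219, chr19:49340595-49362457, minus strand), the most abundant of the 4 TEAD genes in both libraries by FPKM, had 94.5 FPKM under siHNRNPA1 (92.2 to 96.9) and 50.4 in the control (48.7 to 52.1), a log2 fold of 0.89. The difference lay largely in 1 transcript. TEAD2-203, with a coding length of 957 bases, had 37.7 FPKM from 1800 counts under siHNRNPA1 and 1.88 FPKM from 84 counts in the control, or 39.9% and 3.74% of the gene. TEAD2-202, with a coding length of 1350 bases, had 43.9 and 29.9 FPKM. TEAD2-201 had 5.04 and 11.8 FPKM.

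TEAD2-203 includes the exon of 12 bases, whose inclusion was 46.6% under siHNRNPA1 and 13.3% in the control. Counts gave 36.3% (exact binomial interval 35.1% to 37.5%) and 11.4% (10.4% to 12.5%). In TEAD2-203 this exon lies upstream of the annotated start codon. TEAD2-203 also skips an exon of 238 bases (chr19:49359844-49360081) that holds the start codon of the longer forms. Where that exon is internal its inclusion was 23.3% and 87.5%. TEAD2-202 carries these bases within its first exon, and with it counted the values were 59.3% and 95%. TEAD2 overlaps CD37 and DKKL1 on the opposite strand, and whether the counting used strand is not given in the sources used here. FAT3, LATS1, LATS2, YAP1, WWTR1 and TEAD1 overlap genes on the opposite strand too.

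TEAD4 (ENSG00000197905, chr12:2959330-3040673, plus strand) had 62.4 FPKM under siHNRNPA1 (60.2 to 64.7) and 46.2 in the control (44.3 to 48.1), a log2 fold of 0.43 that turned to -0.46 after subtraction of its nearest genes. Its leading transcript TEAD4-201 had 39.7 and 32.2 FPKM, or 63.6% and 69.7% of the gene. No TEAD4 transcript differed in share by 20 percentage points, and the inclusion of its exon of 129 bases was 33.0% under siHNRNPA1 and 28.9% in the control. By its largest share difference, TEAD4 was the steadiest of the genes with several transcripts. That difference was 14.4 points, for TEAD4-207, a model with an incomplete end. TEAD4-207 had 10.8 FPKM from 286 counts under siHNRNPA1 and 1.31 FPKM from 33 counts in the control. TEAD3, the remaining TEAD gene, had 30.4 and 24.2 FPKM (log2 fold 0.32).

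Across the 9 genes with several transcripts, the larger transcripts that were listed at 0 in a single library were all at 0 under siHNRNPA1. Of 16 transcripts that held at least 20% of their gene's control FPKM, 5 were listed at 0 under siHNRNPA1 (FAT1-211, FAT3-206, YAP1-202, TEAD1-203 and LATS1-201). Over all genes with a mean of at least 1 FPKM and several transcripts, 10.6% of such transcripts were. Of 12 transcripts that held at least 20% under siHNRNPA1 none was listed at 0 in the control, where the value over all genes was 5.75%. With no limit on the share, 16 transcripts were above 0 in the control alone and 2 under siHNRNPA1 alone, WWTR1-202 from 1 count and TEAD4-204 from 7. The lower counts per gene under siHNRNPA1, from 74 to 992 counts in these 5 genes against 401 to 5245 in the control, moves with this, and its part was not tested. A share difference of at least 20 points was found in 2 of the 3 genes with at least 5 FPKM in both libraries (YAP1 and TEAD2), and in 40.6% of all such genes. At a minimum of 1 FPKM in both it was found in 5 of 6 genes, against 45.3% of all genes.

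The wider pathway had more genes lower than higher as well. Over 6 lists together, which include the 10 genes and share some members, 44 of 96 measured genes lay 2-fold or more under the control and 3 as far above it, and the median was -0.92, beside 21.9% and 12.4% of all genes. Of these 96 genes 49 lay in the lowest or second lowest of these GC classes, as did 33 of the 44 lower genes. Over all genes, 48.6% of the lowest class and 34.5% of the second lowest were at least 2-fold lower. Nothing about the pathway is read from these counts. After subtraction of the nearest genes 11 lay so far under the control and 4 above it, and the median was -0.31. Over all genes the shares were 8.41% and 8.07%.

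Of the 19 measured core kinases and adaptors, 13 lay 2-fold or more under the control and none above it, around a median of -1.39 (21.9% and 12.4% over all genes). MAP4K3, a kinase that can act on LATS in place of the MST kinases, had 0.692 FPKM under siHNRNPA1 and 10.1 in the control (log2 fold -2.71). SAV1, the scaffold of the MST kinases, had 3.73 and 20.2 FPKM (-2.16). The MST kinases themselves had 0.949 and 5.85 FPKM (STK3, -1.81) and 2.51 and 9.38 FPKM (STK4, -1.57), and MAP4K5 stood at -2.01. After subtraction of the nearest genes MAP4K3 (-1.48), SAV1 (-1.22) and LATS2 were at least 2-fold lower (8.41% over all genes). STK3 then stood at -0.97 and STK4 at -0.43. TAOK2 (0.25) and MAP4K1 (0.32) were the highest of the list.

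Of the 29 measured junction and polarity proteins, 11 lay 2-fold or more under the control and 2 above it, around a median of -0.90 (21.9% and 12.4% over all genes). After the subtraction 1 lay as far under the control and 1 above it (8.41% and 8.07% over all genes). WWC2, a relative of the NF2 partner KIBRA, had 1.93 and 17.6 FPKM (-2.66), and stood at -1.23 after the subtraction. DLG1 (-2.18), PRKCI (-1.99) and TJP1 (-1.68), of the polarity complexes and tight junctions, were within 2-fold after it. The scaffold AMOT, which holds YAP1 at junctions, had 0.402 and 3.17 FPKM (-1.57). RASSF1 (1.12) and PARD6A (1.07) were the genes at least 2-fold higher. The subtraction put them at 0.52 and 0.32, and WTIP at 1.49 was then the gene above 2-fold.

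Of 25 genes of YAP1 and TAZ binding, dephosphorylation and degradation, 8 lay 2-fold or more under the control and none above it, around a median of -0.81 (21.9% and 12.4% over all genes). MOB4 (-1.76), STRN (-1.46), SLMAP (-1.45) and STRN3 (-1.42), of the STRIPAK phosphatase complex that restrains the MST kinases, had the lowest folds, and MOB4 overlaps a readthrough gene on the same strand. All 4 were within 2-fold after the subtraction. The kinase gene CSNK1E (-1.58) and the 14-3-3 gene YWHAH (-1.28) then lay 2-fold or more under the control (8.41% over all genes). CSNK1E also overlaps a readthrough gene on the same strand. The phosphatase 2A subunit genes PPP2CA (1.19) and PPP2R1B (1.05) then lay as far above the control (8.07% over all genes). In the list of transcription partners 4 of 7 measured genes lay 2-fold or more under the control and none above it (21.9% and 12.4% over all genes): YAP1, WWTR1, TEAD1 and VGLL4, a competitor of YAP1 for TEAD, with 11.2 and 24.3 FPKM (-1.05). After the subtraction none of the 7 lay as far under or above the control (8.41% and 8.07% over all genes), around a median of -0.32. VGLL4 then stood at -0.89, and at -0.65 from counts scaled to the library total without the subtraction.

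Of 15 measured genes of the YAP1 and TAZ target signature, 7 lay 2-fold or more under the control and 1 above it, around a median of -0.65 (21.9% and 12.4% over all genes). The 2 classical targets, the matricellular genes CYR61 and CTGF, had 43.5 and 91.2 FPKM (-1.05) and 21.3 and 47.2 FPKM (-1.11). They stood at -1.14 and -1.28 after subtraction of the nearest genes, and were within 2-fold with a pseudocount of 5 FPKM (-0.99 for both) and after median ratio scaling (-0.90 and -0.96). With these settings 1 and 4 genes of the list lay 2-fold or more under the control, as did 947 and 2193 of all 11921 genes. ASAP1 (-2.12), LATS2 (-1.86), CRIM1 (-1.62), PTPN14 (-1.32) and ARHGEF17 (-1.08) were the other lower genes, and FJX1 (1.5) was the higher one. ANKRD1, another classical target, had 0.293 and 0.257 FPKM, too low to compare. AMOTL2 stood at -0.65 and AXL at -0.41, and on the higher side NUAK2 stood at 0.996 and IGFBP3 at 0.78. After the subtraction 4 of the 15 genes lay 2-fold or more under the control and 1 above it (8.41% and 8.07% over all genes), around a median of -0.72. The gene above it was then IGFBP3 (1.01), while FJX1 stood at 0.84.

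**Figure D5:**
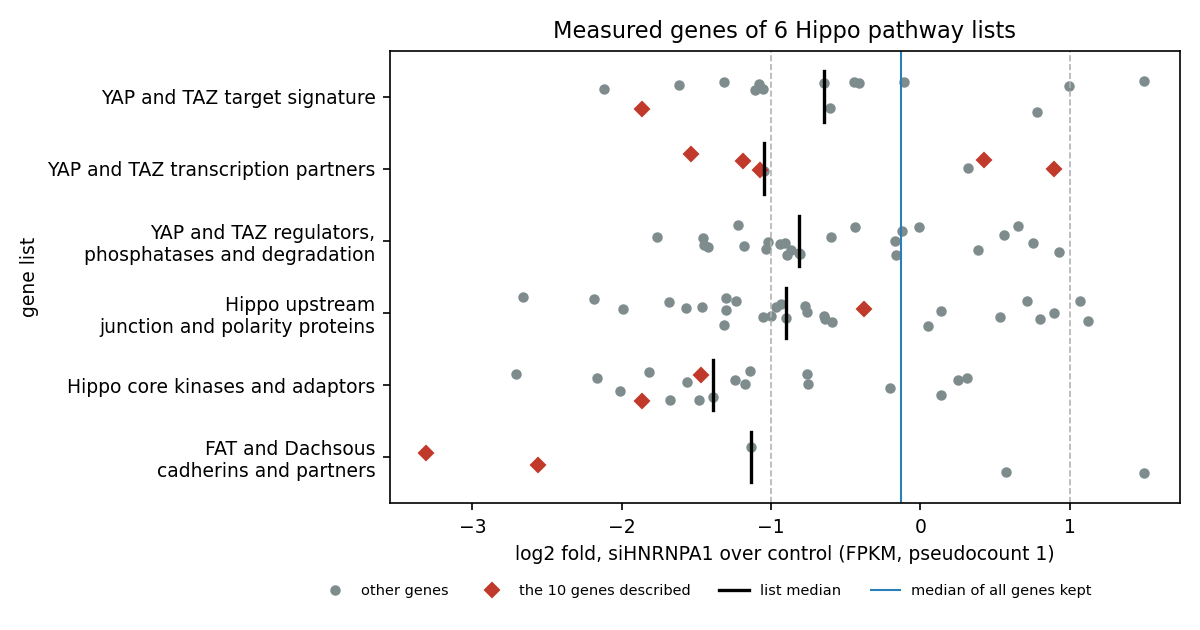
Log2 fold (siHNRNPA1 over control, FPKM with a pseudocount of 1) of each measured gene in 6 Hippo pathway lists, with the 10 genes described as red diamonds, list medians as black bars and the median of all genes (-0.13) as a blue line. The core kinases have a median of -1.39 and the target signature one of -0.65.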

How the data were processed

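Per the file headers, the table deposited by the authors gives a count, a TPM and an FPKM for each transcript. The deposited count values are whole numbers given to overlapping transcripts and were read like estimated counts. The deposited TPM values were used as a scaling alternative, and the FPKM values deposited by the authors are per kilobase of transcript. Aligner, quantifier and annotation: not given in the sources used here. GRCm38 and mm10, which are mouse builds, stand in the submitters' processing notes, but the table holds human identifiers, and all 69 transcripts of the 10 genes have the same position in GENCODE release 29 (GRCh38). Another 6 value columns match neither labelled library and were not used.

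FPKM were summed per gene (pandas 2.3.3, numpy 2.4.6, scipy 1.17.1), with a pseudocount of 1 FPKM for folds, a minimum mean of 1 FPKM and a 2-fold limit. Intervals (95%, exact Poisson or Clopper-Pearson) and the limit of 3 counts treat each estimated count as an independent read and cover counting error only. For the FPKM of a gene, the Poisson limits of its summed count were scaled by its FPKM per count. Each count thus has the same weight, so these intervals are too narrow for genes whose transcripts differ in length. An exon was used if each form reached 5% in at least 1 library. The alternatives were other pseudocounts, filters and scalings, counts in place of FPKM, coding transcripts only, and subtraction of the median fold of the 100 nearest genes. The subtraction was tested on simulated data of 11385 genes with a GC bias. The SD of unchanged genes was 0.638 before it and 0.117 after it, and 200 of 200 genes changed 4-fold kept their direction. GC content and length were drawn at random there, apart from expression and from which genes changed. The simulation therefore cannot show what the subtraction does to changes that go with GC content or length, as the folds here do. The named genes were HNRNPA1, the 10 genes, genes of each list past 2-fold or with the largest folds, and the 4 genes closest to FAT1. Chosen after their values were seen were DCHS1, FAT2, FAT4, DCHS2, TEAD3, AMOTL2, AXL, NUAK2, IGFBP3, TAOK2, MAP4K1, WTIP, YWHAH, PPP2CA, PPP2R1B, ANKRD1, WWTR1-202, TEAD4-204, TEAD4-207, NF2-207, NF2-209 and the markers named. Named transcripts hold at least 20% of a gene in either library or differ by 20 points. The 10 genes and the lists were chosen with earlier results of these data known, and the exon comparison was added after the transcript values had been seen.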

Additional observations from a re-analysis of the deposited data

How the results depend on the processing

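No paired analysis was possible because each condition has 1 library, so no replicate could be left out either. Of 80 alternative folds of the 10 genes 4 had another sign than the main value, for NF2, TEAD4 (under both subtractions) and WWTR1, whose fold was 0.034 after subtraction of the nearest genes. The number of the 10 genes at least 2-fold lower (7) was 3 with a pseudocount of 5 FPKM, 3 with the nearest genes subtracted by the leading or by the longest coding transcript (the latter chosen after seeing the data), and 3 with a minimum mean of 5 FPKM. The number higher was 1 instead of 0 after median ratio scaling, which took TEAD2 to 1.05. Of the pathway genes, 16 were lower with a pseudocount of 5 FPKM, 25 with a minimum mean of 5 FPKM, and 11 or 12 after the subtraction by leading or longest transcript, against 44. The number higher was 6 with a pseudocount of 0.1 FPKM, 0 with one of 5 FPKM, 7 after median ratio scaling and 7 from counts scaled to the library total, against 3. Over all genes, 947 were lower and 841 higher with a pseudocount of 5 FPKM, 1002 and 962 after the subtraction by leading transcript, 879 lower by the longest, and 1450 lower with a minimum mean of 5 FPKM, against 2609 and 1480. Genes with a share difference numbered 3573 at 10 points, 1475 at 30 points and 4278 at 1 FPKM, against 2318 at 20 points. The minimum of 5 FPKM leaves fewer genes, and for the other settings the cause was not tested. Among the exons, the FAT1 exon of 36 bases differed by -54.2 points in FPKM and -10.4 in counts, and the TEAD2 exon of 238 bases by -64.2 points, or -35.7 with TEAD2-202 counted. The other 5 kept their direction and at least 20 points in every alternative run. Depth limits TEAD1 most, with 74 counts in the siHNRNPA1 library.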
